A study of Mus musculus with 20 samples.

Results

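The p53 pathway and its target genes were followed through the conversion of mouse embryonic fibroblasts (MEFs) towards induced pluripotent stem cells, with and without knockdown of Ddx10, a gene for a DEAD-box RNA helicase. The set was a list of 35 gene symbols matched by name to the deposited expression table. Of these, 33 were found among the 15757 genes of the table, while Rps27l and Tap2p were not analysed here. All 33 passed the filter on low values, which removed 0 genes. The groups were cells with an shRNA against Ddx10 (knockdown) and cells with an shRNA against luciferase (control), each at days 0, 1, 3, 5 and 7, with 2 libraries in each of the 10 groups. All groups, those of day 0 included, are named for OSKM (the factors Oct4, Sox2, Klf4 and Myc), and the protocol describes passage 2 MEFs of OG2 mice infected with retroviruses and grown in iCD1 medium. RNA taken with TRIzol was sequenced as messenger RNA in paired ends by Illumina HiSeq, and values are the authors' normalized read counts, called normalized reads here. The labels do not say how day 0 lies relative to infection or which shRNA sequence each knockdown library carried, and these groups include no rescue of Ddx10.

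The transcription factor p53, encoded by Trp53 in the mouse, is kept low by the ubiquitin ligase Mdm2 and by its relative Mdm4, and it is stabilised by DNA damage, oncogenes and faulty ribosome assembly. Stabilised p53 binds pairs of short half-sites in DNA and raises genes that slow the cell cycle, promote cell death, repair DNA or feed back on p53 itself, Mdm2 among them. In fibroblasts given reprogramming factors, p53 is known as a brake, and cells without it give more colonies. A target's messenger RNA reports on more than p53 activity, since most target genes also answer to other factors.

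The table columns summed to 15.67 M to 21.26 M normalized reads per library, highest at day 0 and lowest at day 7 in both arms. The 2 libraries of a group correlated at r = 0.981 to 0.989 across genes. Control day 1 had the largest spread, with a median absolute log2 difference between its libraries of 0.252, against 0.118 to 0.162 in the other control groups and 0.122 to 0.154 in the knockdown groups. Ddx10 had 306 and 355 in knockdown libraries, against 803 and 841 in control libraries at day 3, and its log2 fold change was -0.69 at day 0, -1.58 at day 1, -1.31 at day 3, -0.79 at day 5 and -0.62 at day 7, lower in the knockdown on every day. The replicates are described as biological, without a statement that each was a culture of its own, and every p-value here rests on the spread between such pairs of libraries, which may be technical in part. In bulk RNA, fewer cells of a type and less RNA per cell cannot be told apart. The fibroblast markers fell in sum to 127574 to 133626 normalized reads in control libraries of day 7, against 551723 to 572377 at day 0, while 15 of 15 pluripotency markers rose.

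Promoter windows are printed for the members with a p53 half-site upstream of the gene, because the feedback genes of the pathway, Mdm2, Ppm1d and Trp53 itself, are among them. RefSeq windows (build GRCm38.p6, 250 bases before to 50 after each start) were matched for 25 of the 33 members. Each stretch of 60 bases runs 5′ to 3′ on the strand of its gene, and the capitals mark the half-site.
Trp53: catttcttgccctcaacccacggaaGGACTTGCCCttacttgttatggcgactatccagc
Mdm2: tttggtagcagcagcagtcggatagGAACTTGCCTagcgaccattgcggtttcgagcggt
Ppm1d: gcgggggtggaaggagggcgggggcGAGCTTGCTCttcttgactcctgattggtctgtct
Ccng1: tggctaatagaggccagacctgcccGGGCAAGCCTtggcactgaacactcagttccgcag
Bax: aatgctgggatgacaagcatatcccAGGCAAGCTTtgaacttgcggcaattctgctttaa
The stretches lie at chr11:69580259-69580318 on the plus strand (Trp53), chr10:117710910-117710969 on the minus strand (Mdm2), chr11:85311097-85311156 on the plus strand (Ppm1d), chr11:40755437-40755496 on the minus strand (Ccng1) and chr7:45467065-45467124 on the minus strand (Bax), all outside the transcribed gene. The first base of the half-site lay 75 bases before the RefSeq start in Trp53, 186 in Mdm2, 132 in Ppm1d, 185 in Ccng1 and 201 in Bax.

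The p53 half-site consensus, searched on both strands, was present in 10 of the 25 matched members (40%), against 2582 of 27025 genes (9.55%) with a window of the same length. The other members with a match were Aen, Ei24, Gtse1, Polk and Sesn1. A full element of 2 half-sites up to 13 bases apart was in 0 of 25 members and in 0.074% of all genes. Both searches took exact matches only, and a gene counted if any of its windows matched. The matched members had 37 windows and the 27025 genes had 32851, so the shares were not matched for windows per gene. Members were listed as p53 pathway and target genes, so the shares describe them and test nothing. Elements with a mismatch or outside the window were not counted, so the 0 does not show that members lack a full element. Trp53inp1, Zmat3, Pmaip1, Perp, Tnfrsf10b, Xpc, Ddb2 and Rrm2b had no matched window. A match is a description of the letters and not a measured binding site. Of the 10 matched members that changed with the knockdown over the mean of all days, as given next, 4 had a half-site, and of the 15 that did not pass that test, 6 had one.

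Over the mean of all days, members of every functional class but the stress and secreted genes included at least 1 that was higher in Ddx10 knockdown cells. Of the 33 members, 14 rose and 3 fell, which is 51.5% called, against 17.8% of all genes (10.3% higher, 7.46% lower). Members were chosen with earlier results of these data known, and all genes were not matched to them by level. The shares given here and below therefore describe the members and do not test them against all genes. The median log2 fold change was 0.11 over the members and 0.00 over all genes. The changes were small, from -0.35 for Gdf15 to 0.31 for Mdm2 on the log2 scale. The test was limma on log2(normalized reads + 1), with Benjamini and Hochberg adjustment over all 15757 genes and a threshold of 0.05. Libraries of different days were taken as independent, but the labels do not say whether the days of an arm shared cultures. If they did, the p-values for the mean of all days may be too small. Differences are log2 fold changes, knockdown minus control, and levels are normalized reads in each of the 2 libraries of a group.

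**Figure D1:**
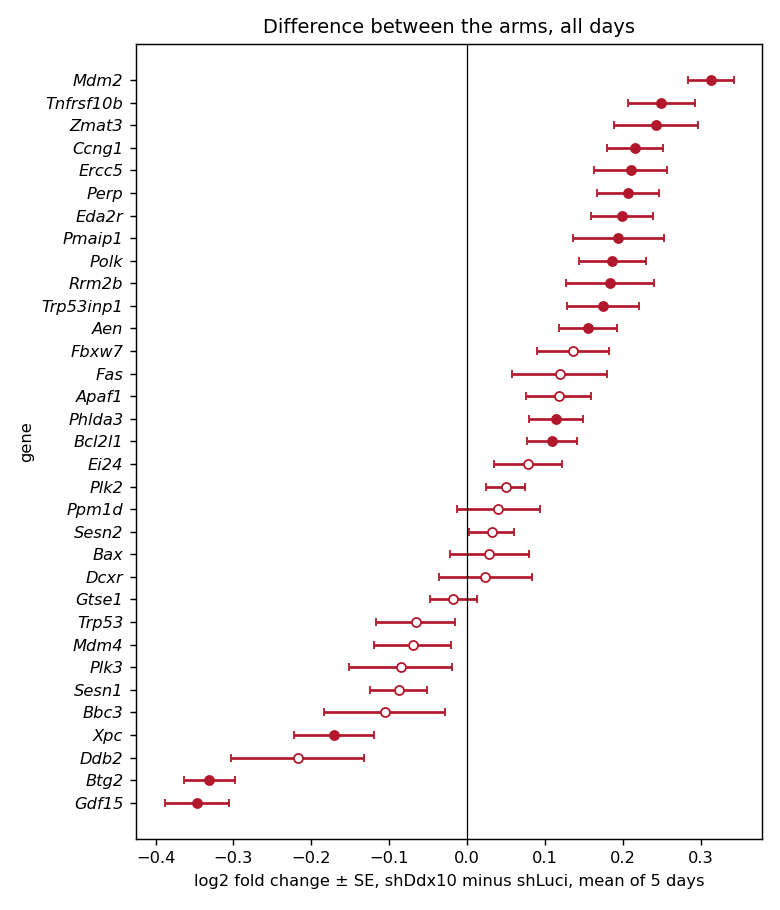
Log2 fold change of each of the 33 members (vertical axis, ordered by value), knockdown (shDdx10) minus control (shLuci), as the mean of all 5 days (horizontal axis). Points are limma estimates with bars of 1 SE, and filled points passed the adjusted p of 0.05. Mdm2 (0.31) lies farthest to the right, while Btg2 (-0.33) and Gdf15 (-0.35) lie farthest to the left.

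Among p53 and its negative regulators, 1 of 4 genes passed the test, and this was Mdm2 (chr10:117688875-117710758, minus strand, in mm10). In knockdown libraries Mdm2 had 7203 and 7409 at day 0, 7597 and 7494 at day 1, 7465 and 7169 at day 3, 5223 and 4852 at day 5 and 3911 and 4278 at day 7. In control libraries Mdm2 had 6967 and 6601 at day 0, 7086 and 6832 at day 1, 5670 and 6241 at day 3, 3269 and 3269 at day 5 and 3124 and 3000 at day 7. Mdm2 was higher in both knockdown libraries than in both control libraries on 5 of 5 days. Over all days Mdm2 differed by 0.31 ± 0.03 (SE, limma adjusted p = 6.91e-06).

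Trp53 (chr11:69580359-69591873, plus strand, in mm10) did not pass the test over the mean of all days. In knockdown libraries Trp53 had 3310 and 3425 at day 0, 3303 and 3086 at day 1, 2684 and 2637 at day 3, 2204 and 2169 at day 5 and 2237 and 2357 at day 7. In control libraries Trp53 had 3787 and 3923 at day 0, 4338 and 3160 at day 1, 2790 and 3404 at day 3, 2043 and 2111 at day 5 and 2025 and 1931 at day 7. Trp53 lay below control in both knockdown libraries at days 0 and 3 and above it at days 5 and 7, and the difference over all days was -0.07 ± 0.05 (SE, limma adjusted p = 0.418). Mdm4, which binds p53 and limits its activity, differed by -0.07 ± 0.05 (SE, limma adjusted p = 0.368). Ppm1d, the phosphatase Wip1 that reverses stress signalling to p53, differed by 0.04 ± 0.05 (SE, limma adjusted p = 0.664). Pseudogene copies of Trp53 and Mdm4 are annotated, so reads of these 2 genes may be shared with their copies.

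Among the 8 genes grouped here under restraint of the cell cycle or growth, 3 rose, 1 fell and 4 did not pass over the mean of all days. The gene that fell was Btg2 (chr1:134075170-134079120, minus strand, in mm10), an antiproliferative partner of the messenger RNA deadenylation machinery. In knockdown libraries Btg2 had 1920 and 1865 at day 0, 1467 and 1526 at day 1, 2039 and 1906 at day 3, 2625 and 2491 at day 5 and 2570 and 2351 at day 7. In control libraries Btg2 had 2749 and 3146 at day 0, 1292 and 1257 at day 1, 2170 and 2207 at day 3, 3741 and 3944 at day 5 and 3439 and 3580 at day 7. Btg2 was higher in both knockdown libraries at day 1 and lower at days 0, 3, 5 and 7. Over all days Btg2 differed by -0.33 ± 0.03 (SE, limma adjusted p = 1.13e-05).

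The 3 that rose were Ccng1, Zmat3 and Trp53inp1. Ccng1 encodes cyclin G1, a partner of a phosphatase that acts on Mdm2. In knockdown libraries Ccng1 had 33706 and 29234 at day 0, 29662 and 33353 at day 1, 26502 and 27145 at day 3, 20900 and 19046 at day 5 and 16390 and 17075 at day 7. In control libraries Ccng1 had 26002 and 28166 at day 0, 28153 and 31275 at day 1, 22186 and 22057 at day 3, 16050 and 17333 at day 5 and 14191 and 14095 at day 7. Ccng1 was higher in both knockdown libraries at days 0, 3, 5 and 7, with overlap at day 1. Over all days Ccng1 differed by 0.22 ± 0.04 (SE, limma adjusted p = 0.000763). Zmat3 encodes an RNA-binding zinc finger protein. In knockdown libraries Zmat3 had 2635 and 2775 at day 0, 2664 and 2953 at day 1, 2592 and 2739 at day 3, 2568 and 2040 at day 5 and 2072 and 2108 at day 7. In control libraries Zmat3 had 3255 and 2728 at day 0, 2107 and 2300 at day 1, 2284 and 2289 at day 3, 1811 and 1745 at day 5 and 1379 and 1778 at day 7. Zmat3 was higher in both knockdown libraries at days 1, 3, 5 and 7, with overlap at day 0. Over all days Zmat3 differed by 0.24 ± 0.05 (SE, limma adjusted p = 0.00554). Trp53inp1 encodes a stress-induced nuclear protein linked to cell death and autophagy. In knockdown libraries Trp53inp1 had 3163 and 2979 at day 0, 3961 and 5075 at day 1, 6735 and 6753 at day 3, 7796 and 7032 at day 5 and 6684 and 6636 at day 7. In control libraries Trp53inp1 had 2029 and 2127 at day 0, 3028 and 3717 at day 1, 5501 and 5621 at day 3, 8268 and 8806 at day 5 and 7680 and 7470 at day 7. Trp53inp1 was higher in both knockdown libraries at days 0, 1 and 3 and lower at days 5 and 7. Over all days Trp53inp1 differed by 0.17 ± 0.05 (SE, limma adjusted p = 0.0171). Without day 1, the mean difference of Trp53inp1 no longer passed (adjusted p = 0.158 with limma).

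The other genes of this class did not pass over the mean of all days, but Gtse1 and Plk2 passed on single days in both directions. Gtse1 is a protein of S and G2 phase that binds p53 in human cells, and its place in this class does not mark it as a brake. In knockdown libraries Gtse1 had 1442 and 1391 at day 0, 2238 and 2085 at day 1, 1691 and 1793 at day 3, 1359 and 1291 at day 5 and 1334 and 1421 at day 7. In control libraries Gtse1 had 1844 and 1777 at day 0, 2479 and 2342 at day 1, 1949 and 1954 at day 3, 1106 and 1071 at day 5 and 1136 and 1095 at day 7. Gtse1 was higher in both knockdown libraries at days 5 and 7 and lower at days 0, 1 and 3. Over all days Gtse1 differed by -0.02 ± 0.03 (SE, limma adjusted p = 0.742). Plk2 is a stress-responsive polo-like kinase. In knockdown libraries Plk2 had 5277 and 5182 at day 0, 4729 and 5010 at day 1, 3863 and 3664 at day 3, 3062 and 3067 at day 5 and 2938 and 3075 at day 7. In control libraries Plk2 had 6147 and 6153 at day 0, 4511 and 4561 at day 1, 3250 and 3228 at day 3, 2933 and 3025 at day 5 and 2828 and 2700 at day 7. Plk2 was higher in both knockdown libraries at days 1, 3, 5 and 7 and lower at day 0. Over all days Plk2 differed by 0.05 ± 0.03 (SE, limma adjusted p = 0.203). Plk3, a kinase of the same family, and Fbxw7, the substrate receptor of a ubiquitin ligase for cyclin E and Myc, had differences of -0.09 and 0.14.

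Of the 8 genes grouped here under mitochondrial apoptosis, 4 rose and 0 fell over the mean of all days. The class is loose, and the 4 were Perp, Aen, Pmaip1 and Bcl2l1, which differ in what they do. Perp (chr10:18845020-18857073, plus strand, in mm10) encodes a membrane protein of desmosomes. In knockdown libraries Perp had 1749 and 1648 at day 0, 2745 and 2736 at day 1, 4063 and 3719 at day 3, 2904 and 2832 at day 5 and 2531 and 2652 at day 7. In control libraries Perp had 1613 and 1508 at day 0, 3243 and 2673 at day 1, 3722 and 3653 at day 3, 1924 and 2230 at day 5 and 1907 and 1841 at day 7. Perp was higher in both knockdown libraries at days 0, 5 and 7, with overlap at days 1 and 3. Over all days Perp differed by 0.21 ± 0.04 (SE, limma adjusted p = 0.00222). Aen (chr7:78895854-78911209, plus strand, in mm10) encodes a nuclease that p53 induces in dying cells. In knockdown libraries Aen had 3478 and 3427 at day 0, 3340 and 3219 at day 1, 3186 and 2881 at day 3, 2469 and 2440 at day 5 and 2281 and 2299 at day 7. In control libraries Aen had 3951 and 3482 at day 0, 3631 and 3216 at day 1, 2901 and 2736 at day 3, 1835 and 1887 at day 5 and 1811 and 1584 at day 7. Aen was higher in both knockdown libraries at days 5 and 7 and lower at day 0, with overlap at days 1 and 3. Over all days Aen differed by 0.16 ± 0.04 (SE, limma adjusted p = 0.00917).

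Pmaip1 (Noxa) encodes a protein that opposes the survival protein Mcl1. In knockdown libraries Pmaip1 had 792 and 619 at day 0, 636 and 762 at day 1, 502 and 570 at day 3, 437 and 401 at day 5 and 413 and 364 at day 7. In control libraries Pmaip1 had 634 and 662 at day 0, 636 and 687 at day 1, 421 and 369 at day 3, 391 and 344 at day 5 and 348 and 349 at day 7. Pmaip1 was higher in both knockdown libraries at days 3, 5 and 7, with overlap at days 0 and 1. Over all days Pmaip1 differed by 0.19 ± 0.06 (SE, limma adjusted p = 0.0312). Bcl2l1 (Bcl-xL), in contrast, encodes a survival protein that acts against Bax. In knockdown libraries Bcl2l1 had 3167 and 3332 at day 0, 2433 and 2510 at day 1, 2610 and 2548 at day 3, 2114 and 2196 at day 5 and 2029 and 2191 at day 7. In control libraries Bcl2l1 had 3689 and 3430 at day 0, 2820 and 2448 at day 1, 2108 and 2092 at day 3, 1942 and 1951 at day 5 and 1725 and 1653 at day 7. Bcl2l1 was higher in both knockdown libraries at days 3, 5 and 7 and lower at day 0, with overlap at day 1. Over all days Bcl2l1 differed by 0.11 ± 0.03 (SE, limma adjusted p = 0.0304). The 4 genes that rose thus included 1 that protects from apoptosis. Bax, Bbc3 (Puma), Apaf1 and Ei24 had differences of 0.03, -0.11, 0.12 and 0.08 and did not pass.

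Of the 4 genes for death receptors and restraint of AKT, 3 rose. Eda2r encodes a receptor for ectodysplasin A2. In knockdown libraries Eda2r had 2728 and 2431 at day 0, 2801 and 2882 at day 1, 2872 and 2983 at day 3, 2489 and 2198 at day 5 and 1867 and 1926 at day 7. In control libraries Eda2r had 2063 and 2250 at day 0, 2361 and 2755 at day 1, 2595 and 2420 at day 3, 1975 and 2157 at day 5 and 1673 and 1686 at day 7. Eda2r was higher in both knockdown libraries than in both control libraries on 5 of 5 days. Over all days Eda2r differed by 0.20 ± 0.04 (SE, limma adjusted p = 0.00263). Tnfrsf10b encodes the mouse receptor for the death ligand Trail. In knockdown libraries Tnfrsf10b had 2122 and 2195 at day 0, 2290 and 2161 at day 1, 2582 and 2388 at day 3, 1822 and 1861 at day 5 and 1650 and 1847 at day 7. In control libraries Tnfrsf10b had 2296 and 2190 at day 0, 1958 and 1716 at day 1, 1772 and 2180 at day 3, 1467 and 1579 at day 5 and 1283 and 1346 at day 7. Tnfrsf10b was higher in both knockdown libraries at days 1, 3, 5 and 7, with overlap at day 0. Over all days Tnfrsf10b differed by 0.25 ± 0.04 (SE, limma adjusted p = 0.000935). Phlda3 encodes a protein that competes with AKT for membrane lipids. In knockdown libraries Phlda3 had 6278 and 6223 at day 0, 3490 and 3369 at day 1, 3152 and 3136 at day 3, 2813 and 2875 at day 5 and 2006 and 2284 at day 7. In control libraries Phlda3 had 7011 and 6647 at day 0, 3465 and 3327 at day 1, 2883 and 2587 at day 3, 2276 and 2367 at day 5 and 1775 and 1994 at day 7. Phlda3 was higher in both knockdown libraries at days 3, 5 and 7 and lower at day 0, with overlap at day 1. Over all days Phlda3 differed by 0.11 ± 0.03 (SE, limma adjusted p = 0.0315). Fas, the receptor for Fas ligand, differed by 0.12 ± 0.06 (SE, limma adjusted p = 0.208) and did not pass.

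Among the 4 stress and secreted genes 1 passed, and it fell. This was Gdf15 (chr8:70629393-70632456, minus strand, in mm10), which encodes a cytokine released by stressed cells. In knockdown libraries Gdf15 had 422 and 418 at day 0, 334 and 313 at day 1, 265 and 275 at day 3, 408 and 414 at day 5 and 364 and 371 at day 7. In control libraries Gdf15 had 567 and 548 at day 0, 365 and 373 at day 1, 364 and 377 at day 3, 547 and 474 at day 5 and 454 and 500 at day 7. Gdf15 was lower in both knockdown libraries than in both control libraries on 5 of 5 days. Over all days Gdf15 differed by -0.35 ± 0.04 (SE, limma adjusted p = 4.84e-05). Sesn1 and Sesn2, sestrins that restrain the growth kinase complex mTORC1, and Dcxr, a sugar reductase, had differences between -0.09 and 0.03 and did not pass.

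Of the 5 genes for DNA repair and nucleotide supply, 3 rose and 1 fell. Ercc5 encodes an endonuclease of nucleotide excision repair. In knockdown libraries Ercc5 had 778 and 794 at day 0, 1155 and 1271 at day 1, 1398 and 1349 at day 3, 1236 and 1011 at day 5 and 1148 and 1140 at day 7. In control libraries Ercc5 had 683 and 716 at day 0, 1104 and 1170 at day 1, 1127 and 1383 at day 3, 1065 and 939 at day 5 and 799 and 831 at day 7. Ercc5 was higher in both knockdown libraries at days 0 and 7, with overlap at days 1, 3 and 5. Over all days Ercc5 differed by 0.21 ± 0.05 (SE, limma adjusted p = 0.00643). Polk encodes a polymerase that copies past damaged bases. In knockdown libraries Polk had 1295 and 1106 at day 0, 1264 and 1379 at day 1, 1115 and 1223 at day 3, 925 and 886 at day 5 and 749 and 825 at day 7. In control libraries Polk had 951 and 1004 at day 0, 1169 and 1270 at day 1, 1160 and 1014 at day 3, 726 and 778 at day 5 and 724 and 697 at day 7. Polk was higher in both knockdown libraries at days 0, 5 and 7, with overlap at days 1 and 3. Over all days Polk differed by 0.19 ± 0.04 (SE, limma adjusted p = 0.00746).

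Rrm2b, a subunit of ribonucleotide reductase, also rose, and Xpc, a sensor of damaged DNA, fell. In knockdown libraries Rrm2b had 406 and 397 at day 0, 443 and 446 at day 1, 390 and 440 at day 3, 398 and 397 at day 5 and 349 and 414 at day 7. In control libraries Rrm2b had 276 and 323 at day 0, 341 and 390 at day 1, 362 and 416 at day 3, 417 and 337 at day 5 and 377 and 370 at day 7. Rrm2b was higher in both knockdown libraries at days 0 and 1, with overlap at days 3, 5 and 7. Over all days Rrm2b differed by 0.18 ± 0.06 (SE, limma adjusted p = 0.0374). In knockdown libraries Xpc had 300 and 334 at day 0, 267 and 233 at day 1, 338 and 355 at day 3, 411 and 410 at day 5 and 443 and 461 at day 7. In control libraries Xpc had 402 and 321 at day 0, 305 and 277 at day 1, 388 and 356 at day 3, 445 and 467 at day 5 and 530 and 510 at day 7. Xpc was lower in both knockdown libraries at days 1, 3, 5 and 7, with overlap at day 0. Over all days Xpc differed by -0.17 ± 0.05 (SE, limma adjusted p = 0.0321). Ddb2, another damage sensor, differed by -0.22 ± 0.09 (SE, limma adjusted p = 0.0926) and did not pass. Exons of Ddb2 share 652 annotated bases with Acp2 on the other strand, and those of Rrm2b share 734 with an antisense gene, so reads of these pairs may be mixed, since no source used here states that counting used strand. Ei24 and Plk3 share 324 and 84 exon bases with a gene on the other strand. Bax shares 192 with the protein-coding Gm45808 on its own strand, which counting by strand would not separate.

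Ppm1d, Plk3, Fbxw7, Bax, Bbc3, Apaf1, Ei24, Fas and Dcxr did not pass the test of knockdown against control on any of the 5 days or over their mean, and neither did Trp53, Mdm4, Ddb2, Sesn1 and Sesn2. The ranges of the first 9 are over the 10 libraries of each arm, so they include the change with day. Ppm1d ran from 371 to 511 in knockdown libraries and 360 to 530 in control libraries, Plk3 from 430 to 715 in knockdown libraries and 438 to 842 in control libraries and Fbxw7 from 350 to 1082 in knockdown libraries and 307 to 992 in control libraries. Bax ran from 1275 to 2380 in knockdown libraries and 1219 to 2703 in control libraries, Bbc3 from 207 to 343 in knockdown libraries and 169 to 468 in control libraries, Apaf1 from 1241 to 1933 in knockdown libraries and 1194 to 1764 in control libraries and Ei24 from 3158 to 4332 in knockdown libraries and 2794 to 4880 in control libraries. Fas ran from 185 to 291 in knockdown libraries and 173 to 311 in control libraries and Dcxr from 382 to 648 in knockdown libraries and 389 to 757 in control libraries.

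The mean differences of Pmaip1, Bcl2l1, Phlda3, Xpc and Rrm2b each lost the call in 10 to 15 of 30 alternative settings, most of which left out 1 library. Those of Mdm2, Btg2, Ccng1, Zmat3, Perp, Aen, Tnfrsf10b, Eda2r, Gdf15, Ercc5 and Polk passed in all 30. In the same contrast the fibroblast markers gave 6 of 16 higher and 0 lower, the epithelial markers 0 of 12 higher and 8 lower, and the genes of S, G2 and M phase 0 of 20 higher and 11 lower. At day 0, in contrast, the fibroblast markers summed to 465792 to 493615 normalized reads in knockdown libraries, against 551723 to 572377 in control libraries. The epithelial markers then summed to 1557 to 1767 in knockdown libraries, against 1904 to 2042 in control libraries. Of single markers at day 0, 1 fibroblast marker was called higher and 0 lower, and 0 epithelial markers were called. The part of these cell type and cell cycle differences in the members' values was not tested.

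**Figure D2:**
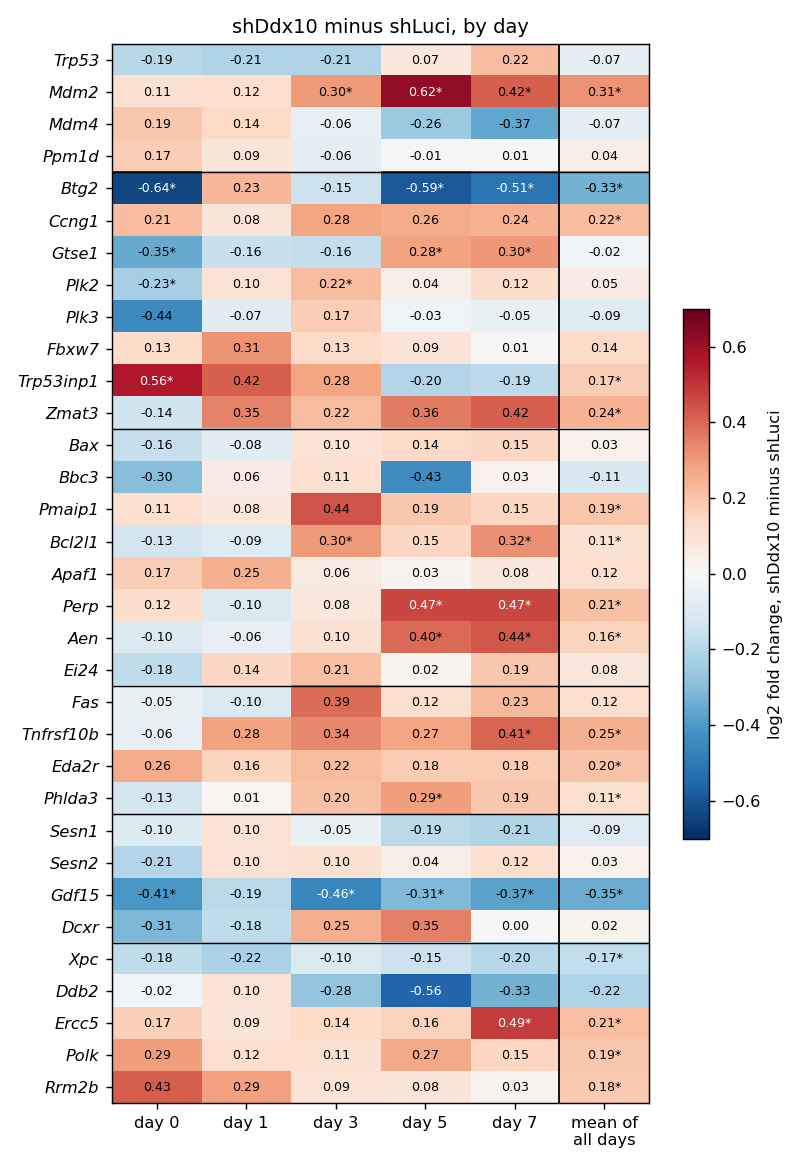
Log2 fold change of every member, knockdown minus control, at each of the 5 days and as their mean (columns), with black lines between the functional classes. Colour and number give the limma estimate, and an asterisk marks an adjusted p under 0.05. Mdm2 is above 0 and Gdf15 below 0 at every day, while Gtse1 and Trp53inp1 change sign between day 0 and day 7.

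At day 0, 1 member rose and 4 fell, which is 15.2% called, against 3.31% of all genes (2.49% higher, 0.812% lower). Btg2 was the strongest, at -0.64 ± 0.07 (SE, limma adjusted p = 0.000407). Trp53inp1 was the one that rose, at 0.56 ± 0.10 (SE, limma adjusted p = 0.011). Gtse1 differed by -0.35 ± 0.07 (SE, limma adjusted p = 0.0122), Gdf15 by -0.41 ± 0.09 (SE, limma adjusted p = 0.0258) and Plk2 by -0.23 ± 0.06 (SE, limma adjusted p = 0.0331). For all 5 genes the libraries of the arms did not overlap. These genes were picked by p on the same libraries, so the lack of overlap is no separate evidence. Mdm2 was at 0.11 ± 0.07 (SE) and did not pass. The count was 2 without control replicate 1, 3 without control replicate 2, 1 without knockdown replicate 1 and 3 without knockdown replicate 2, and 0 when the 4 libraries of day 0 were fitted alone. Btg2 passed with each library left out, Trp53inp1 did not without knockdown replicate 1 and Gtse1 did not without control replicate 1 or knockdown replicate 1, while Plk2 and Gdf15 failed without any 1 of the 4.

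At day 1 none of the 33 members passed limma's adjusted p, against 0.146% of all genes called (0.0254% higher, 0.121% lower), and 8 had an unadjusted p under 0.05. The 3 members with the smallest p were Trp53inp1 at 0.42 ± 0.10 (SE, limma adjusted p = 0.0956), Btg2 at 0.23 ± 0.07 (SE, limma adjusted p = 0.187) and Fbxw7 at 0.31 ± 0.10 (SE, limma adjusted p = 0.208). In knockdown libraries Fbxw7 had 402 and 350 at day 0, 810 and 782 at day 1, 1067 and 1082 at day 3, 857 and 742 at day 5 and 896 and 877 at day 7. In control libraries Fbxw7 had 383 and 307 at day 0, 627 and 656 at day 1, 965 and 992 at day 3, 737 and 760 at day 5 and 859 and 901 at day 7. At day 1, in each of these 3 genes, both knockdown libraries lay above both control libraries. The 3 genes were picked by p on the same libraries, so this separation is no separate evidence. With control replicate 2 left out 3 members passed, with knockdown replicate 1 left out 1 passed, and with either of the others left out 0 passed.

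At day 3, 3 members rose and 1 fell (12.1% called), against 4.77% of all genes (2.51% higher, 2.25% lower). Mdm2 differed by 0.30 ± 0.07 (SE, limma adjusted p = 0.0185), Bcl2l1 by 0.30 ± 0.07 (SE, limma adjusted p = 0.0302), Plk2 by 0.22 ± 0.06 (SE, limma adjusted p = 0.0393) and Gdf15 by -0.46 ± 0.09 (SE, limma adjusted p = 0.0116). For these 4 genes the libraries of the arms did not overlap, which is no separate evidence, since p on the same libraries picked them. Each of the 4 genes lost its call without at least 3 of the 4 libraries. The count was 1 without control replicate 1, 2 without control replicate 2 and 0 without knockdown replicate 1 or 2. At this day 13 of 20 genes of S, G2 and M phase fell, and their sum was 37360 to 38450 normalized reads in knockdown libraries, against 48814 to 52691 in control libraries.

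At day 5, 5 members rose and 2 fell (21.2% called), against 8.73% of all genes (5.83% higher, 2.9% lower). Mdm2 had the largest of its differences, 0.62 ± 0.07 (SE, limma adjusted p = 4.81e-05), and Btg2 differed by -0.59 ± 0.07 (SE, limma adjusted p = 0.000165). These 2 genes passed with each of the 4 libraries of day 5 left out in turn. Perp differed by 0.47 ± 0.09 (SE, limma adjusted p = 0.0036) and Aen by 0.40 ± 0.08 (SE, limma adjusted p = 0.00656), where Perp lost its call without control replicate 1 and Aen without control replicate 1 or knockdown replicate 1. Gtse1 differed by 0.28 ± 0.07 (SE, limma adjusted p = 0.0146), Phlda3 by 0.29 ± 0.08 (SE, limma adjusted p = 0.0256) and Gdf15 by -0.31 ± 0.09 (SE, limma adjusted p = 0.0495), and each of these lost its call without at least 3 of the 4 libraries. The count was 2 without control replicate 1, 5 without control replicate 2, 3 without knockdown replicate 1 and 6 without knockdown replicate 2.

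At day 7, 7 members rose and 2 fell (27.3% called), against 6.17% of all genes (4.65% higher, 1.52% lower). Mdm2 differed by 0.42 ± 0.07 (SE, limma adjusted p = 0.00128) and Btg2 by -0.51 ± 0.07 (SE, limma adjusted p = 0.000624), and both passed with each of the 4 libraries of day 7 left out in turn. Perp differed by 0.47 ± 0.09 (SE, limma adjusted p = 0.00498) and lost its call without knockdown replicate 2. Aen differed by 0.44 ± 0.08 (SE, limma adjusted p = 0.005) and lost its call without control replicate 2 or knockdown replicate 2. Ercc5 differed by 0.49 ± 0.11 (SE, limma adjusted p = 0.0116), Tnfrsf10b by 0.41 ± 0.10 (SE, limma adjusted p = 0.017) and Bcl2l1 by 0.32 ± 0.07 (SE, limma adjusted p = 0.0143). Gtse1 differed by 0.30 ± 0.07 (SE, limma adjusted p = 0.0126) and Gdf15 by -0.37 ± 0.09 (SE, limma adjusted p = 0.024). The last 5 of these genes each lost the call without at least 3 of the 4 libraries. For all 9 genes the libraries of the arms did not overlap. As these genes were picked by p on the same libraries, the lack of overlap is no separate evidence. The count was 4 without control replicate 1 or 2, 7 without knockdown replicate 1 and 2 without knockdown replicate 2.

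At days 5 and 7 the markers of the cell types also differed between the arms. The epithelial markers summed to 10302 to 10509 normalized reads at day 5 in knockdown libraries, against 20409 to 21776 in control libraries, and to 14127 to 14790 at day 7 in knockdown libraries, against 23672 to 25906 in control libraries. The fibroblast markers summed to 175170 to 178379 at day 5 in knockdown libraries, against 147387 to 168705 in control libraries, and to 135347 to 156512 at day 7 in knockdown libraries, against 127574 to 133626 in control libraries. The neural markers summed to 8362 to 8371 at day 5 in knockdown libraries, against 5929 to 6650 in control libraries, and to 8500 to 8719 at day 7 in knockdown libraries, against 6769 to 7074 in control libraries, and 3 of 7 were called higher at each of these days. The pluripotency markers summed to 5587 to 6040 at day 5 in knockdown libraries, against 4778 to 4886 in control libraries, and to 7953 to 8955 at day 7 in knockdown libraries, against 6637 to 7271 in control libraries. Of these 15 markers 1 was higher and 1 lower at day 5 and 1 higher at day 7, and their median log2 fold change was -0.92 at day 5 and -0.37 at day 7, so the sum and the median differed in sign. No marker of these 4 lists was at 0 in these groups. Their part in the members' differences was not tested.

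**Figure D3:**
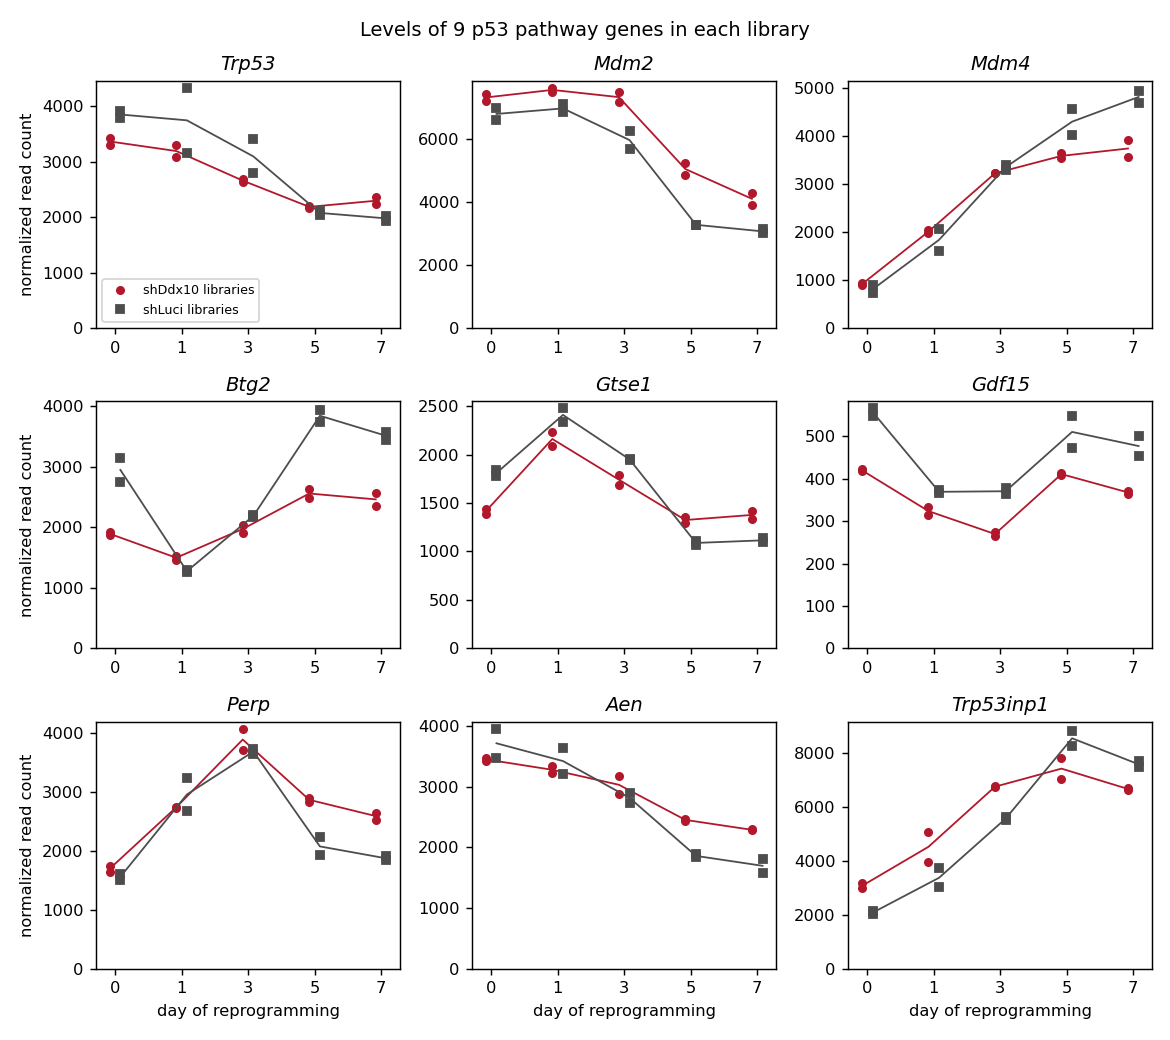
Normalized read counts (vertical axes, from 0) of 9 members in every library at each day (horizontal axes, days evenly spaced), with red circles for knockdown (shDdx10) libraries, grey squares for control (shLuci) libraries and lines through the group means. Mdm2 lies higher and Gdf15 lower in knockdown libraries at every day, and Btg2 is lower in knockdown libraries at days 0, 3, 5 and 7.

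Levels can be compared between genes only per length, here as normalized reads per kilobase of exon. Ccng1 was the highest member at day 0, at 8961 ± 900 per kilobase in knockdown cells and 7712 ± 436 in control cells (SD, n = 2 each). Phlda3 came second at 4009 ± 24.7 in knockdown cells and 4381 ± 165 in control cells, and Bax, whose reads may be mixed with Gm45808, next at 1505 ± 7.53 in knockdown cells and 1683 ± 45.3 in control cells. At the low end, Ddb2 had 12.9 ± 0.72 per kilobase in knockdown cells and 13.1 ± 0.0027 in control cells. At day 7 Ccng1 was still the highest, at 4764 ± 138 per kilobase in knockdown cells and 4027 ± 19.4 in control cells. Rrm2b was then the lowest, at 41.8 ± 5.0 in knockdown cells and 40.9 ± 0.55 in control cells.

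In control cells most members changed during reprogramming. At days 5 and 7 more fell than rose, with the deposited values and with quantile scaling. Column sums followed day, at 21.26 M and 20.83 M in control libraries of day 0 against 15.67 M and 15.67 M at day 7. Scaling to an equal sum, which would raise day 7 relative to day 0, was not tried. The members called against day 0 were 22 at day 1 (9 higher, 13 lower), 28 at day 3 (11 higher, 17 lower), 29 at day 5 (11 higher, 18 lower) and 30 at day 7 (10 higher, 20 lower). That is 66.7% of the members at day 1, 84.8% at day 3, 87.9% at day 5 and 90.9% at day 7, against 55%, 66.2%, 70.2% and 72.3% of all genes at the same days. Of all genes, 28.3% were higher and 26.7% lower at day 1, 34.9% higher and 31.3% lower at day 3, 37.7% higher and 32.5% lower at day 5, and 38.6% higher and 33.7% lower at day 7. Without control replicate 1 of day 0 the count at day 1 was 14. At day 7 the median log2 fold change was -0.46 over the members and 0.09 over all genes, and with quantile scaling -0.34 over the members and -0.08 over all genes. With that scaling 10 members rose and 9 fell at day 1, 13 rose and 12 fell at day 3, 10 rose and 16 fell at day 5 and 9 rose and 19 fell at day 7, so the excess of falls depends on the scaling at days 1 and 3. At day 3 the median was -0.19 over the members and 0.07 over all genes, against -0.02 and -0.06 with quantile scaling.

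The largest rises from day 0 to day 7 in control cells were Mdm4, Ddb2, Trp53inp1 and Sesn1. Mdm4 had 719 and 887 at day 0, 1604 and 2065 at day 1, 3292 and 3396 at day 3, 4562 and 4022 at day 5 and 4927 and 4685 at day 7, a log2 change of 2.59 ± 0.11 (SE, limma adjusted p = 6.29e-12) at day 7. Trp53inp1 had its highest values at day 5, and its change at day 7 was 1.87 ± 0.10 (SE, limma adjusted p = 1.68e-10). In knockdown libraries Sesn1 had 228 and 230 at day 0, 285 and 284 at day 1, 459 and 470 at day 3, 658 and 678 at day 5 and 742 and 675 at day 7. In control libraries Sesn1 had 254 and 236 at day 0, 267 and 263 at day 1, 477 and 483 at day 3, 759 and 763 at day 5 and 809 and 830 at day 7. Its change in control cells was 1.74 ± 0.08 (SE, limma adjusted p = 2.05e-11). In Mdm4 and Sesn1 both control libraries of day 7 lay above all control libraries of days 0, 1, 3 and 5. For Ddb2 reads may be mixed with Acp2. In knockdown libraries Ddb2 had 34 and 37 at day 0, 46 and 67 at day 1, 69 and 77 at day 3, 114 and 123 at day 5 and 161 and 134 at day 7. In control libraries Ddb2 had 36 and 36 at day 0, 49 and 56 at day 1, 89 and 88 at day 3, 189 and 161 at day 5 and 180 and 191 at day 7. Its change in control cells was 2.34 ± 0.19 (SE, limma adjusted p = 1.75e-08).

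The largest falls were Phlda3, Plk2, Mdm2 and Aen. Phlda3 had 7011 and 6647 at day 0, 3465 and 3327 at day 1, 2883 and 2587 at day 3, 2276 and 2367 at day 5 and 1775 and 1994 at day 7, a change of -1.86 ± 0.08 (SE, limma adjusted p = 4.27e-12) at day 7. Its change was already -1.01 on the log2 scale at day 1. Plk2 changed by -1.15 ± 0.06 (SE, limma adjusted p = 3.45e-11), Mdm2 by -1.15 ± 0.07 (SE, limma adjusted p = 2.57e-10) and Aen by -1.13 ± 0.08 (SE, limma adjusted p = 5.08e-09). Mdm2 fell late: its change was 0.04 at day 1, -0.19 at day 3 and -1.05 at day 5, where the value at day 3 is 0.17 with quantile scaling. Trp53 fell by 0.96 ± 0.11 on the log2 scale (SE, limma adjusted p = 1.41e-06).

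By class, all 4 genes for death receptors and AKT restraint fell from day 0 to day 7 in control cells. Of the 8 grouped under mitochondrial apoptosis, 6 fell with 1 rise (Perp). Of those grouped under restraint of the cell cycle or growth, 3 rose and 5 fell, and of the repair genes 3 rose and 1 fell. Ccng1 was among those that fell, with a change of -0.94 ± 0.08 (SE) in limma, but with quantile scaling its change was 0.11, so its direction depends on the scaling. With that scaling Eda2r, of the death receptor class, no longer passed (-0.21, limma adjusted p = 0.0514). Neither did Rrm2b, of the repair genes that rose (0.18, limma adjusted p = 0.225). Perp rose early, to a change of 1.24 at day 3, and was at 0.26 at day 7. Ppm1d, Bbc3 and Ercc5 did not pass at day 7. Over the same days 13 of 16 fibroblast markers fell and 2 rose, 11 of 12 epithelial markers rose, and of 12 macrophage and blood markers 2 rose and 8 fell. The part of this change in cell type in the members' values was not tested.

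**Figure D4:**
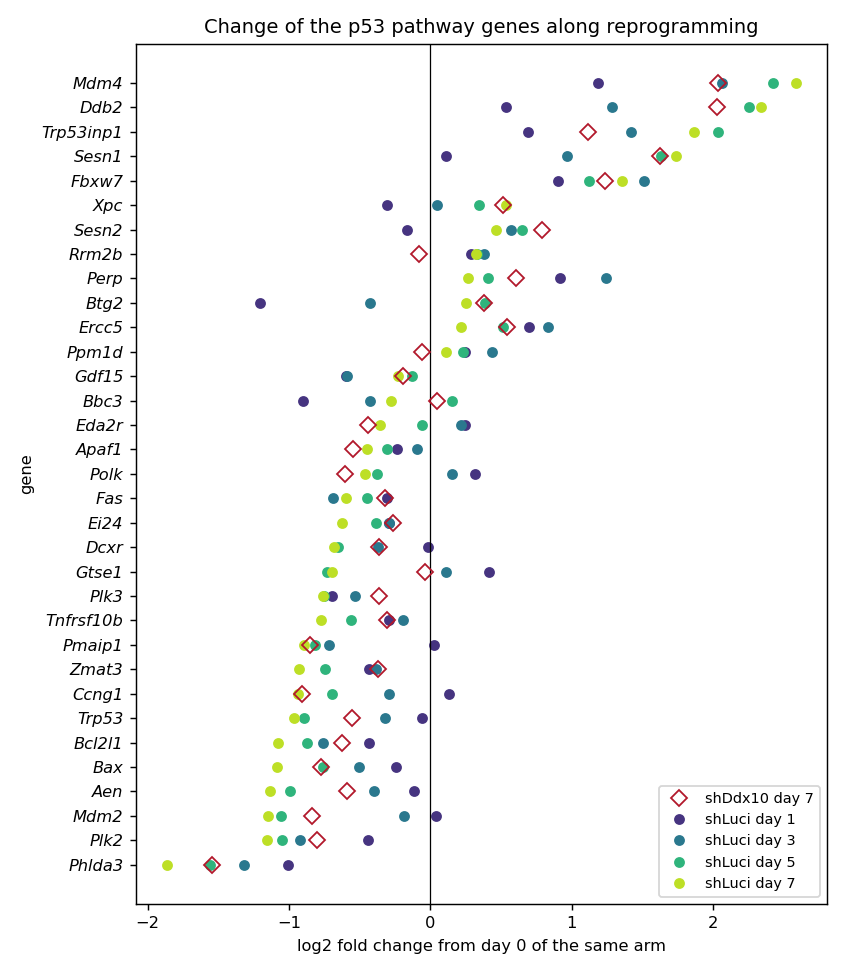
Log2 fold change of each member (vertical axis) from day 0 of the same arm (horizontal axis), with open diamonds for day 7 in knockdown (shDdx10) cells and filled circles for days 1, 3, 5 and 7 in control (shLuci) cells, as limma estimates without error bars. At day 7 Gtse1 was at -0.04 in knockdown cells and -0.70 in control cells, and Trp53inp1 at 1.12 in knockdown cells and 1.87 in control cells.

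In knockdown cells 27 members passed for day 7 against day 0 (10 higher, 17 lower), against 67.1% of all genes (36.2% higher, 30.9% lower). The median log2 change was -0.31 over the members and 0.08 over all genes, and with quantile scaling -0.18 over the members and -0.09 over all genes. The difference between the arms in this change was tested as an interaction, and 7 members passed (5 higher in knockdown cells, 2 lower), which is 21.2% against 6.38% of all genes (3.92% higher, 2.46% lower). The median difference was 0.31 over the members and 0.02 over all genes.

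Gtse1 and Trp53inp1 passed this interaction in every alternative tried. Gtse1 changed by -0.04 ± 0.07 (SE) in knockdown cells and by -0.70 ± 0.07 (SE) in control cells, a difference of 0.66 ± 0.09 (SE, limma adjusted p = 0.00152). It was lower in knockdown libraries at day 0 and higher at day 7. Trp53inp1 changed by 1.12 ± 0.10 (SE) in knockdown cells and by 1.87 ± 0.10 (SE) in control cells, a difference of -0.75 ± 0.15 (SE, limma adjusted p = 0.00906). It was higher in knockdown libraries at day 0 and lower at day 7. The others that passed were Aen, Bcl2l1, Plk2 and Sesn2 in the direction of Gtse1 and Mdm4 in that of Trp53inp1. Mdm4 had 935 and 888 at day 0, 1980 and 2028 at day 1, 3222 and 3214 at day 3, 3531 and 3630 at day 5 and 3901 and 3567 at day 7 in knockdown libraries, so that at day 7 it lay below both control libraries. In knockdown libraries Sesn2 had 1730 and 1807 at day 0, 2031 and 1877 at day 1, 3234 and 3281 at day 3, 3387 and 3215 at day 5 and 3088 and 3029 at day 7. In control libraries Sesn2 had 2098 and 1986 at day 0, 1879 and 1762 at day 1, 3013 and 3049 at day 3, 3188 and 3219 at day 5 and 2724 and 2924 at day 7. Sesn2 was higher in both knockdown libraries at days 3 and 7 and lower at day 0, with overlap at days 1 and 5. Over all days Sesn2 differed by 0.03 ± 0.03 (SE, limma adjusted p = 0.506). With 1 library left out the count was 2 without knockdown replicate 2 of day 7, 3 without control replicate 2 of day 7 or knockdown replicate 1 of day 0, 4 without replicate 1 of either control day, and 5 to 8 without any of the other 3. For Mdm2, which passed against control at day 7 and not at day 0, the interaction was 0.31 ± 0.09 (SE, limma adjusted p = 0.0604). The sums of the genes of S, G2 and M phase were 36311 to 36606 normalized reads in knockdown libraries and 37282 to 38535 in control libraries at day 0, and 42946 to 43377 in knockdown libraries and 44463 to 45942 in control libraries at day 7. Their part in the Gtse1 values was not tested.

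Whether the knockdown effect differed among the 5 days was also tested over all days at once (limma F test), and 8 of 33 members passed, which is 24.2%, against 6.76% of all genes. These were Mdm2, Btg2, Gtse1, Plk2, Trp53inp1, Bcl2l1, Perp and Aen. For Btg2 (adjusted p = 0.000794, limma F test) the sign differed at day 1, at 0.23, against -0.64 at day 0 and -0.59 at day 5. For Mdm2 (adjusted p = 0.0117, limma F test) the sign was the same on all days and the size ran from 0.11 at day 0 to 0.62 at day 5. With knockdown replicate 2 of day 7 left out 5 members passed, and 6 to 11 without any other library.

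Cdkn1a, the cell cycle inhibitor p21 and the best known p53 target, had 12858 and 13810 in knockdown libraries, against 13282 and 13662 in control libraries at day 7, and its mean difference over all days was -0.01 ± 0.03 (SE, limma adjusted p = 0.804). None of the single days passed for Cdkn1a, and its values ran from -0.16 at day 0 to 0.14 at day 3. Of 46 other p53 target genes found of 50 listed, 12 rose and 7 fell over the mean of all days, against 10.3% of all genes higher and 7.46% lower, with a median of 0.05. Of 25 other regulators of the pathway found of 32 listed, 0 rose and 2 fell, a smaller share than the 17.8% of all genes called. Of these lists the 4 genes with the smallest p were Hdac1, Tap1, Slc19a2 and Tob1. Slc19a2, a thiamine transporter, differed by 0.24 ± 0.03 (SE, limma adjusted p = 7.96e-05). Tap1, a peptide transporter of antigen presentation, differed by -0.58 ± 0.06 (SE, limma adjusted p = 1.14e-05), and Tob1, an antiproliferative relative of Btg2, by -0.27 ± 0.04 (SE, limma adjusted p = 0.000224). Hdac1, a histone deacetylase, differed by -0.30 ± 0.03 (SE, limma adjusted p = 5.67e-06). From day 0 to day 7 in control cells 13 of the 46 other targets rose and 21 fell, and 16 of the 25 other regulators rose and 5 fell, against 72.3% of all genes called (38.6% higher, 33.7% lower). For the other targets the share called in either direction was near that of all genes. The 4 with the smallest p were Tob1 at 2.16, Ddit4, an inhibitor of mTORC1, at 2.40, Ass1, an enzyme of arginine synthesis, at -1.72 and Tap1 at 2.99 on the log2 scale.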

How the data were processed

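Messenger RNA was measured in 20 libraries, 2 in each of 10 groups of arm and day. The authors deposited 1 table of 15757 genes with a signal per gene, described as normalized read counts. The mm10 genome, DESeq2 1.22.0, RSEM 1.2.22, STAR 2.5.2a and Trim Galore 0.4.4 are named without roles, per the submitters' processing notes. The normalization, annotation and gene filter are not given in the sources used here. As an alternative, each library was scaled by its median ratio to the gene means. The control day 7 medians stayed at -0.459 over the members and 0.0895 over all genes. The deposited values thus behaved as already scaled this way, and quantile scaling is the only separate check of scaling. Only 42.3 to 63.4% of low values lay within 0.1 of whole steps, so whole reads could not be recovered and no count test was run. The step and column sum put the depth at 12.0 M to 23.7 M reads in each library. All genes reach 7.61 in some library, so low genes had been removed before deposit. Of the identifiers, 15665 were found in GENCODE names and 23 damaged symbols were restored.

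Values were analysed as log2(value + 1) after a filter of at least 1 in at least 2 libraries, which removed 0 genes. All 20 libraries entered 1 fit in limma 3.58.1 (R 4.3.3) with 10 group means, trend and robust empirical Bayes, and adjustment over all genes (threshold 0.05). With a pseudocount of 1, folds of low genes are understated. The fit was tested on simulated data with independent noise and no course over days, which cannot show the effect of shared cultures or of scaling. The 33 members were grouped by role, the markers and lists of other p53 genes were written by hand, and members and lists were chosen with earlier results of these data known. Given in every library were members that passed a knockdown comparison or, where none did, the 3 with the smallest p, the 4 largest rises and falls of the control course, Trp53 and Mdm2. Named non-members were Ddx10, Cdkn1a and the 4 genes with the smallest p of the other p53 genes. Positions are GENCODE M21 gene spans, and promoter windows are RefSeq (GRCm38.p6). Alternatives changed the pseudocount, filter, scaling, variance settings, library weights, replicate block or the libraries fitted. The mean of all days without day 1 was added after seeing the data.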

Additional observations from a re-analysis of the deposited data

Results flagged for a closer look

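For 7 members the change from day 0 to day 7 differed between knockdown and control cells by limma's interaction test. The difference, knockdown minus control on the log2 scale, was 0.66 for Gtse1, 0.54 for Aen, 0.45 for Bcl2l1, 0.36 for Plk2 and 0.32 for Sesn2. It was -0.55 for Mdm4 and -0.75 for Trp53inp1. Gtse1 and Trp53inp1 kept the call in all 18 alternatives, while Sesn2 kept it in 6 and Mdm4 in 7.

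For 8 members the knockdown effect differed among the 5 days by limma's F test. The adjusted p was 0.000794 for Btg2, 0.00204 for Gtse1, 0.00923 for Trp53inp1, 0.0117 for Mdm2, 0.0187 for Aen, 0.0188 for Plk2, 0.0232 for Bcl2l1 and 0.0268 for Perp. Groups of 2 libraries are too small to look for single libraries that stand apart.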

How the results depend on the processing

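The count of members that passed over the mean of all days was 17, and it was 13 to 20 with 1 library left out, 17 with a replicate block over all libraries or within days, and 16 without day 1. Deviations of same-numbered libraries in the 2 arms correlated at -0.05 to 0.084 by day. With 2 libraries per group, and only arms within a day compared, this cannot show whether cultures were paired. The block changed the day 3 count to 1 (within days) and the F test count to 4. With 1 library left out, counts ranged from 1 to 3 at day 0, 0 to 3 at day 1, 0 to 2 at day 3, 2 to 6 at day 5 and 2 to 7 at day 7, from 14 to 23, 23 to 24, 26 to 27 and 27 to 29 for control days 1, 3, 5 and 7, from 22 to 26 for knockdown day 7, from 2 to 8 for the interaction and from 5 to 11 for the F test. Quantile scaling gave 3 at day 0. Library weights gave 3 at day 0, 7 at day 3, 14 at day 5 and 13 for control day 1. Fits of the compared groups alone gave 0 at day 0 and 14 for control day 1. Without trend and robust settings the count was 2 at day 3 and 4 for the F test. The cause of these moves was not tested. Fits that left libraries out also had fewer libraries, and its part in the moves was not separated.

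Of 188 results for single members, 118 kept their direction and stayed on the same side of the threshold under every alternative. The 188 include the members named at day 1, which had no call. Quantile scaling moved the median change of all genes in control cells at day 7 to -0.08, against 0.09, and reversed 6 results: the change of Mdm2 in control cells at day 3 (0.17), that of Ccng1 in control cells at days 3 (0.71), 5 (0.31) and 7 (0.11) and in knockdown cells at day 7 (0.08), and that of Ei24 in knockdown cells at day 7 (0.014).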
